A study of Homo sapiens with 12 samples.

Results

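The genes described here carry out DNA repair or signal DNA damage, and they were followed in HK-2 cells, a line of immortalized human renal proximal tubular epithelial cells, after exposure to Nnm. A list of 57 genes, grouped by repair pathway, was matched to the gene symbols annotated for each probe set of the array, and where a gene had several, the brightest on average across the 12 arrays stood for it. Of the 57 genes, 52 had a probe set annotated to that gene alone, and all 52 passed the filter on low values; they stand among 10907 genes tested, out of 19775 with such a probe set. BRCA2, RBBP8, FANCA, FANCD2 and PMS2 were not matched to such a probe set and are named only.

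The design had 4 groups of 3 arrays, each array labelled as a biological replicate. HK-2 cells received Nnm at a dose labelled only as low, for 24 h or for 48 h, and control cells received the vehicle for the same times. All groups share the line's immortalized background, and no group differs in genotype. The study exposed this line to several compounds to look for signatures of toxicity to the kidney, and the 12 arrays described here are its low-dose Nnm arrays and their controls. Values are log2 expression values, so a difference of 1 is a doubling; levels of different probe sets are not compared with each other.

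DNA repair is divided by the lesion it removes. Base excision repair replaces single damaged bases and shares its last steps with the repair of single-strand breaks, nucleotide excision repair cuts out bulky lesions, mismatch repair corrects errors of replication, and direct reversal enzymes restore alkylated bases without cutting the strand. Double-strand breaks are rejoined by end joining throughout the cell cycle, or copied from the sister chromatid by homologous recombination in cells that have replicated their DNA, and the Fanconi anemia pathway unhooks crosslinks between strands. Many genes of recombination and crosslink repair are transcribed together with replication genes, through E2F factors that bind near their start sites. In the kidney the proximal tubule takes up and concentrates many compounds, which makes it a common site of toxic injury.

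Promoter sequences are shown for the 7 members with the largest changes called at a single time, 4 that were higher with Nnm at 48 h (RAD54L, BLM, FANCG and XRCC4) and 3 that were lower at 24 h (H2AX, LIG1 and ERCC2). Each runs over the 250 bases that end just before the first listed start site, 5′ to 3′ on the gene's own strand, from RefSeq on build GRCh38.p14. Capitals mark matches to words of the E2F type (TTTCCCGC, TTTCGCGC, TTTGCCGC, TTTGGCGC, TTCCCGCC or TTGGCGCC) or to CCAAT, each searched on both strands, so that CCAAT on the other strand reads ATTGG.
RAD54L: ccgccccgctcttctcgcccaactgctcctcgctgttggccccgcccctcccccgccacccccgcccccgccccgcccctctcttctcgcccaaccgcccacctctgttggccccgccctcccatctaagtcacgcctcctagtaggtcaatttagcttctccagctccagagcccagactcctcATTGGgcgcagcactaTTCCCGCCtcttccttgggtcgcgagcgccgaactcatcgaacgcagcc
BLM: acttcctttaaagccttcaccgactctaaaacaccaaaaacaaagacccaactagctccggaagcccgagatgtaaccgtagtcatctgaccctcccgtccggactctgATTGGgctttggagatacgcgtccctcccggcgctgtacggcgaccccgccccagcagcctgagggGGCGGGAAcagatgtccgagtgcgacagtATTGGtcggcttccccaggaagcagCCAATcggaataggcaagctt
FANCG: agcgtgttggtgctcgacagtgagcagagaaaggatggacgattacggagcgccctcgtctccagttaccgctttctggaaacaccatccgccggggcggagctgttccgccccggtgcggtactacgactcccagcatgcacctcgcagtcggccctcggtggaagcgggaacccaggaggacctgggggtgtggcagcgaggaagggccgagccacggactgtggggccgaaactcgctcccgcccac
XRCC4: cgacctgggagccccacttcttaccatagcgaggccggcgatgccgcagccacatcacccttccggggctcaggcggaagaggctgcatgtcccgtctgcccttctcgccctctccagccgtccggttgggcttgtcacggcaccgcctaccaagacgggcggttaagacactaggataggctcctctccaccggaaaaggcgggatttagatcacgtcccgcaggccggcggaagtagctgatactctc
H2AX: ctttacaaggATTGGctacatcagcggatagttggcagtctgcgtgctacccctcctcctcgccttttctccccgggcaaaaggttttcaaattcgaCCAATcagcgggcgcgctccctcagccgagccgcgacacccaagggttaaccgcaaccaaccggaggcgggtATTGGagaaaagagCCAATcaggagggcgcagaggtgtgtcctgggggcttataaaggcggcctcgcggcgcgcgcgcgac
LIG1: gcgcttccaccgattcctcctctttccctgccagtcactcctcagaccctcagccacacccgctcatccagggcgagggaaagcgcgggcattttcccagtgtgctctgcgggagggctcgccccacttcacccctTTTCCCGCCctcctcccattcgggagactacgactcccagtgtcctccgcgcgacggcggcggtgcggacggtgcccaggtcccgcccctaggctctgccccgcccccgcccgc
ERCC2: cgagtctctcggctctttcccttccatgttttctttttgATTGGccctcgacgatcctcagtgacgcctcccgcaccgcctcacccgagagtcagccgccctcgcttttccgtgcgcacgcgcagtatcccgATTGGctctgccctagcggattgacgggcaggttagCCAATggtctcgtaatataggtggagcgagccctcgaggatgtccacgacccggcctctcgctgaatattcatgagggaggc

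These promoters lie at chr1:46247438-46247687 on the plus strand for RAD54L, chr15:90717096-90717345 on the plus strand for BLM, chr9:35079943-35080192 on the minus strand for FANCG and chr5:83077297-83077546 on the plus strand for XRCC4. Those of H2AX (chr11:119095466-119095715), LIG1 (chr19:48170345-48170594) and ERCC2 (chr19:45370574-45370823) are on the minus strand. An E2F-type word was found in the promoters of RAD54L, BLM and LIG1. In RAD54L the word was TTCCCGCC, whose first and last bases lie 49 and 42 bases before the start site, and BLM held it on the other strand, as GGCGGGAA. LIG1 held 2 overlapping words, TTTCCCGC and TTCCCGCC. H2AX had 4 CCAAT matches, ERCC2 and BLM had 3 each and RAD54L had 1, while the windows of FANCG and XRCC4 matched neither motif. Among the 46 members with a listed promoter, 12 (26.1%) held an E2F-type word and 20 (43.5%) held CCAAT, against 5.41% and 33.0% of all 27305 listed promoters of the same length. The 12 were RAD51AP1, RAD54L and BLM of recombination, FANCL, MSH3, MGMT and XPC, and UNG, OGG1, TDG, PARP2 and LIG1 of base excision. The recombination genes BRCA1, BARD1, PALB2, RAD51C and EXO1 held no E2F-type word. One more motif, TTTGAA (the CHR element of cell cycle promoters), was searched the same way, is not marked in capitals, and was found in 4 of the 46 (8.7%) against 13.6% of all. WRN, NBN, FANCI, POLB, XRCC5 and PRKDC had no entry. The 27305 listed promoters were not limited to genes tested on these arrays, whereas the 46 members were all tested. The motifs were chosen with the expression changes known, and a match is a description of the letters only.

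All 12 arrays had 40.4% to 40.8% of their probe sets above a log2 value of 4, the floor used for testing. The first principal component of the tested genes held 50.3% of the variance and placed the controls between 18.6 and 34.4 and Nnm replicates 1 and 3 between -31.2 and -43.2. Nnm replicate 2 stood apart from the other Nnm arrays at both times, at -1.55 at 24 h and -3.28 at 48 h. All 4 arrays numbered 2, controls included, also had the lowest difference between the 5′ and 3′ ACTB control probe sets, -1.09 to -1.17 against -0.74 to -0.86 on the others. Of 8 proximal tubule markers only DPP4 passed the filter, and the other 7 had means of 2.10 to 3.01; the 5 epithelial markers KRT8, KRT18, KRT19, EPCAM and CDH1 all passed. Fibroblast markers passed for 3 of 7 genes, endothelial markers for 1 of 5, and the leukocyte markers for none of the 3 that were listed. DPP4 rose at both times, by 0.77 and 1.19, and the fibroblast collagen COL1A1 fell by 0.53 on the log2 scale at 48 h; the part of cell composition in the results was not tested.

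Low-dose Nnm moved DNA repair genes in both directions. In the fit as reported no member was called at both 24 h and 48 h, although the difference between the times did not pass for any of them. With the replicate number as a block RAD50 and MSH6 passed at both times, and with a block for each number within each time neither did. At 24 h the calls were mostly decreases, in the damage-marking histone H2AX, the ligase LIG1, the helicase ERCC2 and PARP1, and RAD50 rose. At 48 h the 4 calls were increases, in RAD54L, BLM, FANCG and XRCC4. Averaged over both times 17 members passed, 7 higher and 10 lower, with break sensing genes in both groups and end joining and nucleotide excision genes among those that fell. Neither time had a larger share of repair genes called than of all genes.

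At 24 h, 5 of the 52 members passed limma's test at an adjusted p under 0.05, 1 higher and 4 lower, where 19.4% of all tested genes were called (10.6% higher and 8.85% lower). The median change of the 52 was -0.15, against 0.01 over all genes, and 37 of them had negative differences. The Nnm and control arrays did not overlap for 17 members (5 above, 12 below), against 39.8% of all genes (21.1% above, 18.7% below). With the replicate number as a block, 17 members passed (4 higher, 13 lower; 38.8% of all genes), and with a block for each number within each time 10 passed (1 higher, 9 lower; 30.5%). No member was called without control replicate 3 or without Nnm replicate 3 of that time; 1 was called without Nnm replicate 1, 2 without control replicate 1, 3 without control replicate 2 of 48 h or Nnm replicate 3 of 48 h, and 17 without Nnm replicate 2 of 24 h.

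At 48 h, 4 of the 52 members passed, all higher, where 13.8% of all genes were called (8.45% higher and 5.34% lower). Their median change was 0.09, against 0.02 over all genes, with 29 positive differences. Groups did not overlap for 21 members (16 above, 5 below), against 36.1% of all genes (20.3% above, 15.8% below). With the replicate number as a block 12 members passed (11 higher, 1 lower; 32.2% of all genes), and 10 with the block within each time (9 higher, 1 lower; 23% of all genes). No member was called without control replicate 3, Nnm replicate 1 or Nnm replicate 3 of that time, 1 without control replicate 1, 2 without control replicate 2, 10 without Nnm replicate 2 (7 higher, 3 lower), 8 without Nnm replicate 1 of 24 h and 7 without Nnm replicate 2 of 24 h.

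The mean change over both times used all 12 arrays and passed for 17 of 52 members, beside 37.3% of all genes (20.4% higher and 16.9% lower). With the replicate number as a block 27 passed (10 higher, 17 lower; 52.6% of all genes), which added CHEK1, XRCC4 and ERCC4 among the higher and PALB2, NBN, MGMT, MPG, XPA, ERCC1 and ERCC5 among the lower, with adjusted p of 0.00789 to 0.0485. With the block within each time ERCC4, PALB2, NBN, MGMT and ERCC1 did not pass. The calls of RAD50, CHEK2, H2AX, MSH6, PARP1, PRKDC, ERCC2 and DDB1 in the fit as reported held when any single array was left out. The other 9 were lost at least once, with adjusted p up to 0.0958 for BRCA1, 0.094 for MRE11, 0.0809 for ATR, 0.0775 for FANCG, 0.0572 for ALKBH2, 0.0546 for LIG1, 0.0548 for POLB, 0.0666 for XRCC5 and 0.109 for XRCC6. Every array except Nnm replicate 2 of 48 h ended at least 1 of these calls, and the count was 9 without Nnm replicate 3 of 24 h, 10 without Nnm replicate 1 of 48 h and 11 without control replicate 3 of either time. The arrays measured RNA of whole cultures, so a smaller share of cells expressing a gene and less RNA per cell cannot be told apart.

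**Figure D1:**
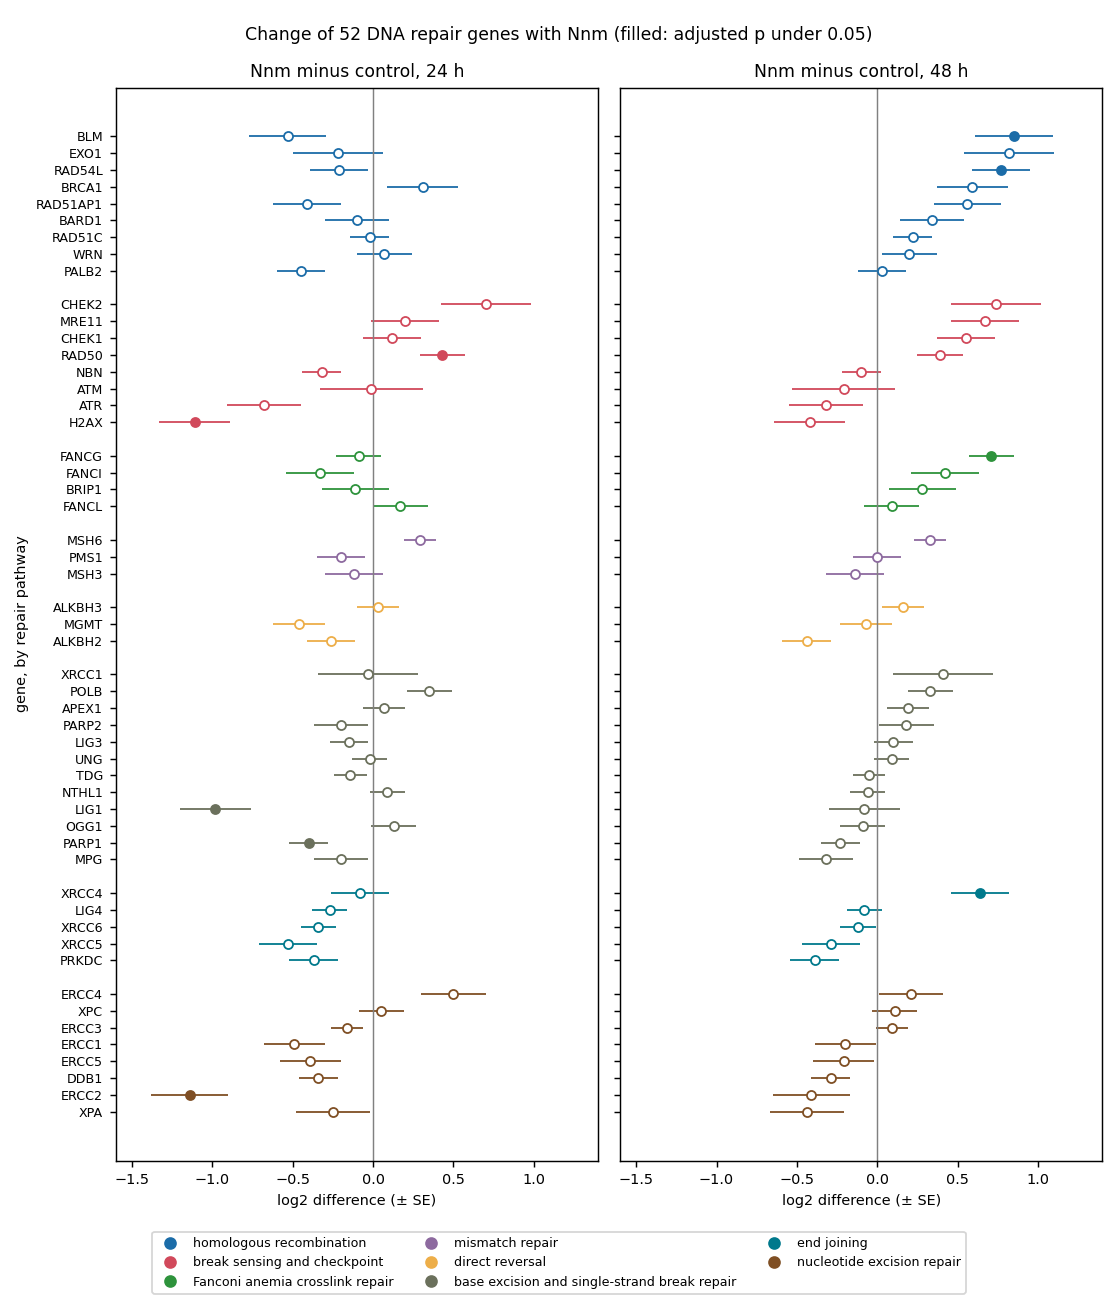
Log2 difference between Nnm and control (points, with the standard error as bars) for the 52 DNA repair genes, grouped and coloured by pathway, at 24 h on the left and 48 h on the right; filled points passed the test. On the probe sets used, all 9 homologous recombination genes lie right of 0 at 48 h and 7 of the 9 lie left of it at 24 h, while the 5 end joining genes lie left of 0 at 24 h on the probe sets used (XRCC4 at -0.08, and at 0.19 with its probe sets averaged).

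Homologous recombination begins with resection of the broken ends and ends with invasion of the intact duplex and the separation of the joined chromatids. Its 9 tested members showed no call at 24 h, with a median of -0.21 and 7 negative differences, beside 48.7% of all genes. At 48 h all 9 differences were positive, beside 52.1% of all genes, with a median of 0.56, and RAD54L and BLM rose. For RAD51C the sign depended on the probe set, at 0.22 and -0.14. Recombination genes outside the members did not share this pattern: 11 of 20 tested were positive at 48 h, with a median of 0.07. Over both times only BRCA1 passed, higher with Nnm.

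RAD54L, a motor protein that acts in strand invasion, read 7.55, 7.34 and 7.60 on the control arrays at 48 h and 8.40, 7.96 and 8.44 with Nnm (replicates 1, 2 and 3 here and below). All Nnm arrays were above all controls. Its difference was 0.77 ± 0.18 (SE, n = 3 and 3), 1.71-fold, with limma's adjusted p of 0.0215. At 24 h its controls read 8.13, 8.06 and 7.99 and its Nnm arrays 7.72, 8.24 and 7.60, which overlap, with a difference of -0.21. The mean change of 0.28 missed the threshold (adjusted p = 0.102 by limma) and passed with the block within each time (0.0478). The call at 48 h was lost without any single control array of that time or without Nnm replicate 1 or 3, with adjusted p up to 0.0883.

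BLM, the helicase that acts in resection and in undoing the joined molecules that recombination leaves, read 6.40, 6.71 and 7.00 in controls at 48 h and 7.67, 7.21 and 7.77 with Nnm. The groups did not overlap, and the difference was 0.85 ± 0.24 (1.80-fold, adjusted p = 0.0395 by limma). At 24 h the order was the other way, with 7.71, 7.87 and 7.99 in controls and 6.87, 7.76 and 7.37 with Nnm, a difference of -0.53 that missed the threshold at an adjusted p of 0.132 in limma. The lowest control array of 24 h and the highest Nnm array overlapped by a small margin. The call of 48 h held without Nnm replicate 1 or 2 of 24 h or Nnm replicate 2 of 48 h, and was lost without any of the other 9 arrays (adjusted p up to 0.13).

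BRCA1, the ubiquitin ligase that promotes resection, passed over both times, with a mean change of 0.45 ± 0.15 (adjusted p = 0.0408 by limma). It read 9.07, 8.69 and 8.79 in controls and 8.97, 9.10 and 9.40 with Nnm at 24 h, and 8.86, 8.34 and 8.64 against 9.53, 8.73 and 9.36 at 48 h. The groups overlapped at both times, and replicate 1 at 24 h was the single pair with a lower value under Nnm. At 48 h alone its difference of 0.59 passed with the replicate number as a block (adjusted p = 0.0259).

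Of the other recombination genes, 3 passed at a single time with that block but not in the fit as reported. All 3 also passed with the block within each time. EXO1, an exonuclease of resection, read 6.99, 7.60 and 7.72 in controls at 48 h and 8.26, 8.09 and 8.43 with Nnm, without overlap; its difference of 0.82 had an adjusted p of 0.0754, and 0.0212 with the block. RAD51AP1, which stimulates strand invasion, read 9.71, 9.83 and 10.08 against 10.31, 10.34 and 10.66, also apart, with a difference of 0.56 (adjusted p = 0.0931, and 0.024 with the block). PALB2, the bridge between BRCA1 and BRCA2, differed by -0.45 at 24 h, where the block gave an adjusted p of 0.0136 and the test without it 0.0596, and by 0.03 at 48 h. BARD1, the partner of BRCA1, differed by -0.10 and 0.34 at 24 h and 48 h, RAD51C, which acts in strand exchange, by -0.02 and 0.22, and the helicase WRN by 0.07 and 0.20, and none of these passed.

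**Figure D2:**
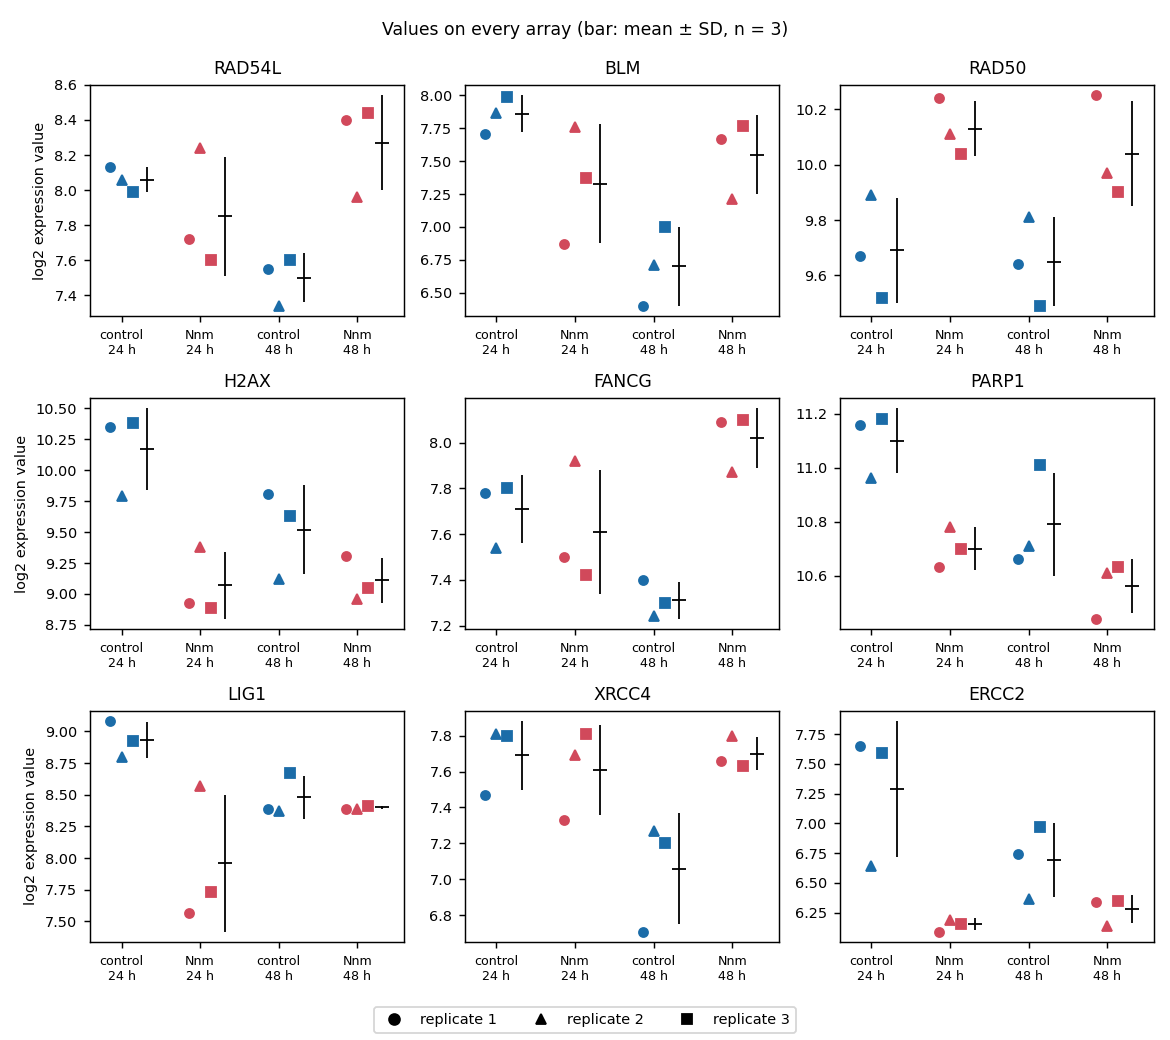
Log2 expression value on each of the 12 arrays for the 9 members that passed the test at 24 h or at 48 h, with controls in blue, Nnm in red, a marker shape for each replicate number and the mean ± SD (n = 3) as a black bar beside each group; the vertical axes differ between genes and do not start at 0. RAD54L, BLM, FANCG and XRCC4 have all Nnm arrays above all controls at 48 h, and H2AX, PARP1, LIG1 and ERCC2 have all Nnm arrays below all controls at 24 h.

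The genes that sense breaks and signal to the checkpoint were called in both directions. Of the 8 tested, RAD50 rose and H2AX fell at 24 h, and over both times RAD50, MRE11 and CHEK2 rose while H2AX and ATR fell. The medians were 0.05 at 24 h and 0.15 at 48 h, with 4 positive and 4 negative differences at each time.

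H2AX, the histone variant that is phosphorylated around a break, read 10.35, 9.79 and 10.38 in controls at 24 h and 8.93, 9.38 and 8.89 with Nnm. All Nnm arrays lay below all controls, the difference was -1.11 ± 0.22 and the level was 2.16-fold lower (adjusted p = 0.0112 by limma). Controls at 48 h read 9.81, 9.12 and 9.63 and Nnm arrays 9.31, 8.96 and 9.05, overlapping, with a difference of -0.42 that did not pass. Its 2 other probe sets above the floor differed by -1.35 and -0.47 at 24 h. Without control replicate 3 or Nnm replicate 3 of 24 h the adjusted p rose to at most 0.0556; the mean change of -0.76 had an adjusted p of 0.00448.

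RAD50 and MRE11, the ATPase and the nuclease of the complex that first binds broken ends, were both higher over the 2 times. RAD50 read 9.67, 9.89 and 9.52 in controls and 10.24, 10.11 and 10.04 with Nnm at 24 h, and 9.64, 9.81 and 9.49 against 10.25, 9.97 and 9.90 at 48 h. Its groups did not overlap at either time, and its difference of 0.43 at 24 h passed narrowly (adjusted p = 0.0494 by limma). The mean change of 0.41 also passed (0.0087). At 48 h its difference of 0.39 passed with the replicate number as a block (0.0245) and not with the block within each time (0.057). Its 2 other probe sets above the floor did not share the increase, at -0.01 and -0.24 at 24 h, and the mean of its 3 probe sets gave 0.06 (adjusted p = 0.845) at 24 h and 0.05 (0.793) over both times. The call at 24 h held only without control replicate 2 of that time or Nnm replicate 1 of 48 h and was lost without any of the other 10 arrays, with adjusted p up to 0.173.

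MRE11 read 8.23, 8.32 and 7.76 in controls and 7.96, 8.70 and 8.25 with Nnm at 24 h, which overlap. At 48 h its controls read 7.76, 8.06 and 7.76 and its Nnm arrays 8.75, 8.31 and 8.54, which do not. Its mean change was 0.43 ± 0.15 (adjusted p = 0.04 by limma), and its difference of 0.67 at 48 h had an adjusted p of 0.0561, or 0.0308 with the replicate number as a block. NBN, the third subunit of the complex, differed by -0.32 at 24 h (adjusted p = 0.0841, and 0.0408 with the block) and by -0.10 at 48 h. With the block within each time NBN did not pass at 24 h (0.0653). Its 3 other probe sets above the floor differed by 0.03, 0.00 and -0.11 at 24 h, and the mean of the 4 was -0.10 (adjusted p = 0.635 by limma).

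The kinases of the pathway also parted. ATR, which responds to stalled replication forks and resected DNA, read 10.05, 10.19 and 10.20 in controls and 9.06, 9.98 and 9.35 with Nnm at 24 h. All its Nnm arrays were below the controls at that time, whereas at 48 h 9.67, 9.92 and 9.79 stood against 9.23, 9.92 and 9.28, with overlap. Its mean change was -0.50 ± 0.16 (adjusted p = 0.0338 by limma), and its difference of -0.68 at 24 h had an adjusted p of 0.0611, or 0.01 with the block. ATM, the kinase activated at double-strand breaks, differed by -0.01 and -0.21 on the probe set used and did not pass. Its probe sets disagreed in sign at both times. Another differed by 0.38 at 24 h and 0.29 at 48 h, with all Nnm arrays above all controls at each time. The remaining one above the floor differed by 0.12 and -0.03. Their mean gave 0.16 and 0.02 and did not pass (adjusted p = 0.709 and 0.973 by limma).

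CHEK2, the checkpoint kinase downstream of ATM, had Nnm arrays above all controls at both times. The values were 7.45, 8.11 and 7.47 against 8.14, 8.31 and 8.67 at 24 h, and 7.35, 7.74 and 7.75 against 8.24, 7.84 and 8.98 at 48 h. Its mean change of 0.72 ± 0.20 was the largest increase among the members (adjusted p = 0.0175 by limma), although neither time passed alone (0.101 and 0.102). CHEK1, the kinase downstream of ATR, differed by 0.12 at 24 h and 0.55 at 48 h, where the groups did not overlap and the adjusted p was 0.06, or 0.0116 with the block. The mean of its probe sets passed at 48 h (0.58, adjusted p = 0.0458 by limma) and over both times (0.37, adjusted p = 0.0311).

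In the Fanconi anemia pathway, which repairs crosslinks between strands, 4 members were tested and FANCG was the only one called at a single time. FANCG belongs to the core complex that attaches ubiquitin to the FANCD2 and FANCI pair. Its controls at 48 h read 7.40, 7.24 and 7.30 and its Nnm arrays 8.09, 7.87 and 8.10, clearly apart. The difference was 0.71 ± 0.14 (1.63-fold, adjusted p = 0.0141 by limma), the smallest adjusted p of any member at that time. At 24 h the values overlapped, at 7.78, 7.54 and 7.80 in controls and 7.50, 7.92 and 7.42 with Nnm, with a difference of -0.09. Without control replicate 3, Nnm replicate 1 or Nnm replicate 3 of 48 h the adjusted p reached up to 0.0593; the mean change of 0.31 passed at 0.0347 and was lost with the block within each time (0.0526).

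The other 3 differed in the same direction at 48 h without passing. FANCI, which is clamped on DNA with FANCD2, differed by -0.33 at 24 h and by 0.42 at 48 h, where its Nnm arrays were above all controls. BRIP1, a helicase that binds BRCA1, differed by -0.11 and 0.28, again without overlap at 48 h, and FANCL, the ubiquitin ligase of the core complex, by 0.17 and 0.09.

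The mismatch repair genes gave 1 call, an increase over both times in MSH6, which recognises mismatched bases. MSH6 read 11.91, 11.93 and 11.82 in controls and 12.07, 12.27 and 12.18 with Nnm at 24 h, and 11.59, 11.90 and 11.79 against 12.15, 12.03 and 12.07 at 48 h. Its groups did not overlap at either time, and its mean change was 0.31 ± 0.07 (adjusted p = 0.00958 by limma). With the replicate number as a block each time passed alone (0.0408 and 0.0307), and with the block within each time neither did (0.0837 and 0.0695). MSH3, which recognises small loops of unpaired bases, differed by -0.12 and -0.14, and PMS1 by -0.20 and 0.00; neither passed.

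Among the 3 direct reversal enzymes, ALKBH2, a demethylase of alkylated bases in double-stranded DNA, fell over both times. It read 7.57, 7.72 and 7.69 in controls and 7.43, 7.51 and 7.24 with Nnm at 24 h, and 8.12, 7.91 and 7.76 against 7.58, 7.69 and 7.20 at 48 h. Its Nnm arrays were below all controls at both times, with a mean change of -0.35 ± 0.10 (adjusted p = 0.0232 by limma) and, with the block, a call at 48 h alone (0.022). MGMT, which takes the methyl group from guanine onto itself, differed by -0.46 at 24 h (adjusted p = 0.0637, and 0.0311 with the block) and by -0.07 at 48 h. With the block within each time MGMT did not pass at 24 h (0.0649). ALKBH3, which acts on single-stranded DNA, differed by 0.03 and 0.16.

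Base excision and single-strand break repair had 12 tested members, of which LIG1 and PARP1 fell at 24 h and none passed at 48 h. Over both times LIG1 and PARP1 fell and POLB rose. The medians were -0.09 at 24 h and 0.02 at 48 h.

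LIG1, the ligase that seals long patches in base excision and joins fragments in replication, read 9.08, 8.80 and 8.92 in controls at 24 h and 7.57, 8.57 and 7.73 with Nnm. The arrays did not overlap, with replicate 2 nearest its control, and the difference was -0.98 ± 0.22, a level 1.97-fold lower (adjusted p = 0.0162 by limma). At 48 h its values were 8.39, 8.37 and 8.67 against 8.39, 8.39 and 8.41, a difference of -0.08. The call of 24 h was lost without control replicate 1 or 3 or Nnm replicate 1 or 3 of that time, with adjusted p up to 0.0671.

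PARP1, the sensor that marks strand breaks with poly(ADP-ribose), read 11.16, 10.96 and 11.18 in controls and 10.63, 10.78 and 10.70 with Nnm at 24 h, and 10.66, 10.71 and 11.01 against 10.44, 10.61 and 10.63 at 48 h. Nnm arrays were below all controls at both times. The difference at 24 h was -0.40 ± 0.12 (1.32-fold lower, adjusted p = 0.0411 by limma) and the mean change was -0.31 (0.0149). The call at 24 h was lost without control replicate 1 or 3 or Nnm replicate 1 or 3 of that time, control replicate 2 of 48 h or Nnm replicate 3 of 48 h, with adjusted p up to 0.136.

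POLB, the polymerase that fills the single-base gap, read 9.01, 9.12 and 9.20 in controls and 9.66, 9.17 and 9.55 with Nnm at 24 h, and 9.03, 8.93 and 9.15 against 9.50, 9.19 and 9.40 at 48 h. The groups overlapped at 24 h and not at 48 h, and the mean change was 0.34 ± 0.10 (adjusted p = 0.0224 by limma). At 24 h alone the block gave a call (0.0354), and the block within each time did not (0.0766). The glycosylases that remove damaged bases did not pass: MPG differed by -0.20 at 24 h and -0.32 at 48 h, UNG by -0.02 and 0.09, OGG1 by 0.13 and -0.09, NTHL1 by 0.09 and -0.06, and TDG by -0.14 and -0.05. Nor did APEX1, which cuts at the empty site (0.07 and 0.19), the scaffold XRCC1 (-0.03 and 0.41), its ligase LIG3 (-0.15 and 0.10) or PARP2 (-0.20 and 0.18). LIG3 had 5 probe sets above the floor that disagreed in sign at 24 h. Their mean passed at 48 h (0.42, adjusted p = 0.03 by limma) and over both times (0.26, adjusted p = 0.0221).

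End joining split between the complex that binds the ends, which was lower with Nnm, and XRCC4, which was higher at 48 h. At 24 h the 5 tested members had negative differences on the probe sets used, with a median of -0.34 and no call; the sign for XRCC4 turned on its other probe sets. Over both times XRCC5 and XRCC6, the subunits of Ku that thread onto DNA ends, and PRKDC, the kinase they recruit, fell.

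XRCC4, the scaffold of the ligase LIG4, read 6.71, 7.27 and 7.20 in controls at 48 h and 7.66, 7.80 and 7.63 with Nnm. The groups did not overlap, and the difference was 0.64 ± 0.18 (1.56-fold, adjusted p = 0.0375 by limma); its 2 other probe sets above the floor differed by 0.68 and 0.43. At 24 h it read 7.47, 7.81 and 7.80 against 7.33, 7.69 and 7.81, a difference of -0.08, while its other probe sets differed by 0.30 and 0.35 and the mean of the 3 by 0.19 (adjusted p = 0.449 by limma). Over both times the mean of the 3 passed (0.39, adjusted p = 0.0269 by limma). The call at 48 h was lost without control replicate 1 or 3 or any single Nnm array of 48 h, with adjusted p up to 0.117, and without both Nnm arrays numbered 2 (0.06). LIG4 itself differed by -0.27 and -0.08 and did not pass.

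XRCC5 read 13.05, 13.13 and 13.09 in controls and 12.29, 12.98 and 12.39 with Nnm at 24 h, without overlap, and 12.72, 13.01 and 12.87 against 12.37, 12.82 and 12.54 at 48 h, with overlap. XRCC6 read 13.08, 13.14 and 13.26 against 12.76, 12.89 and 12.79 at 24 h, also apart, and 12.72, 12.86 and 13.05 against 12.62, 12.82 and 12.85 at 48 h. Both partners of Ku were below their controls on every Nnm array at 24 h. The mean changes were -0.41 ± 0.13 for XRCC5 (adjusted p = 0.0272 by limma) and -0.23 ± 0.08 for XRCC6 (0.0462), and at 24 h alone the block gave 0.00983 and 0.0145 where the test without it gave 0.0611 and 0.0583. A second probe set of XRCC5 shared the decrease, at -0.38 at 24 h and -0.24 at 48 h. The third differed by 0.01 and 0.09, with a mean of 4.27 that was near the floor of 4. The mean of these probe sets gave -0.22 over both times (adjusted p = 0.131 by limma). XRCC6 did not pass after quantile normalisation (-0.19, adjusted p = 0.0704 by limma).

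PRKDC read 11.98, 11.72 and 11.82 in controls and 11.23, 11.73 and 11.45 with Nnm at 24 h. At 48 h it read 11.79, 11.89 and 11.85 against 11.34, 11.69 and 11.32. The groups overlapped at 24 h through replicate 2 and were apart at 48 h, and the differences were nearly equal, -0.37 and -0.39, with a mean of -0.38 ± 0.10 (adjusted p = 0.0156 by limma).

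Nucleotide excision repair had a median change of -0.30 at 24 h and -0.21 at 48 h over its 8 tested genes. ERCC2 fell at 24 h, and ERCC2 and DDB1 fell over both times. No member of this pathway rose in the fit as reported. ERCC4 rose over both times with the block and, without it, when both Nnm arrays numbered 2 were left out (0.43, adjusted p = 0.0464 by limma). It did not pass with the block within each time (0.0611).

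ERCC2, the helicase of the transcription factor TFIIH that opens DNA around a lesion, read 7.65, 6.64 and 7.59 in controls at 24 h and 6.09, 6.19 and 6.15 with Nnm. The Nnm arrays were within a narrow range below all controls, of which replicate 2 was the lowest. The difference was -1.14 ± 0.24, a level 2.21-fold lower, the largest change of any member at that time (adjusted p = 0.0141 by limma), and its second probe set differed by -0.86. At 48 h the values 6.74, 6.36 and 6.97 stood against 6.34, 6.14 and 6.35, still without overlap, with a difference of -0.41 that did not pass. The second probe set differed by -0.86 at 48 h as well, and the mean of the probe sets gave -0.64 (adjusted p = 0.0642 by limma). The call of 24 h was lost without control replicate 3, Nnm replicate 1 or Nnm replicate 3 of that time (adjusted p up to 0.0653); the mean change was -0.78 (0.00651).

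DDB1, the adaptor that links the damage-binding subunit to a ubiquitin ligase, read 9.64, 9.36 and 9.71 in controls and 9.19, 9.26 and 9.22 with Nnm at 24 h, and 9.49, 9.32 and 9.46 against 9.03, 9.30 and 9.06 at 48 h. The arrays did not overlap at either time, with a mean change of -0.32 ± 0.09 (adjusted p = 0.0147 by limma). At 24 h alone its difference of -0.34 had an adjusted p of 0.0669 in limma, or 0.048 with the block. The block within each time gave 0.0809. The nucleases that cut on either side of the lesion did not pass: ERCC1 differed by -0.49 and -0.20, its partner ERCC4 by 0.50 and 0.21, and ERCC5 by -0.39 and -0.21. With the block these passed at 24 h (adjusted p = 0.0431, 0.0462 and 0.018 by limma), ERCC4 as higher. With the block within each time ERCC5 passed (0.0428), and ERCC1 and ERCC4 did not (0.0737 and 0.0787). The 3 probe sets of ERCC1 disagreed in sign at 24 h, and their mean passed over both times (-0.32, adjusted p = 0.0236 by limma). The lesion sensor XPC differed by 0.05 and 0.11, XPA, which verifies the lesion, by -0.25 and -0.44, and ERCC3, the second TFIIH helicase, by -0.16 and 0.09.

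**Figure D3:**
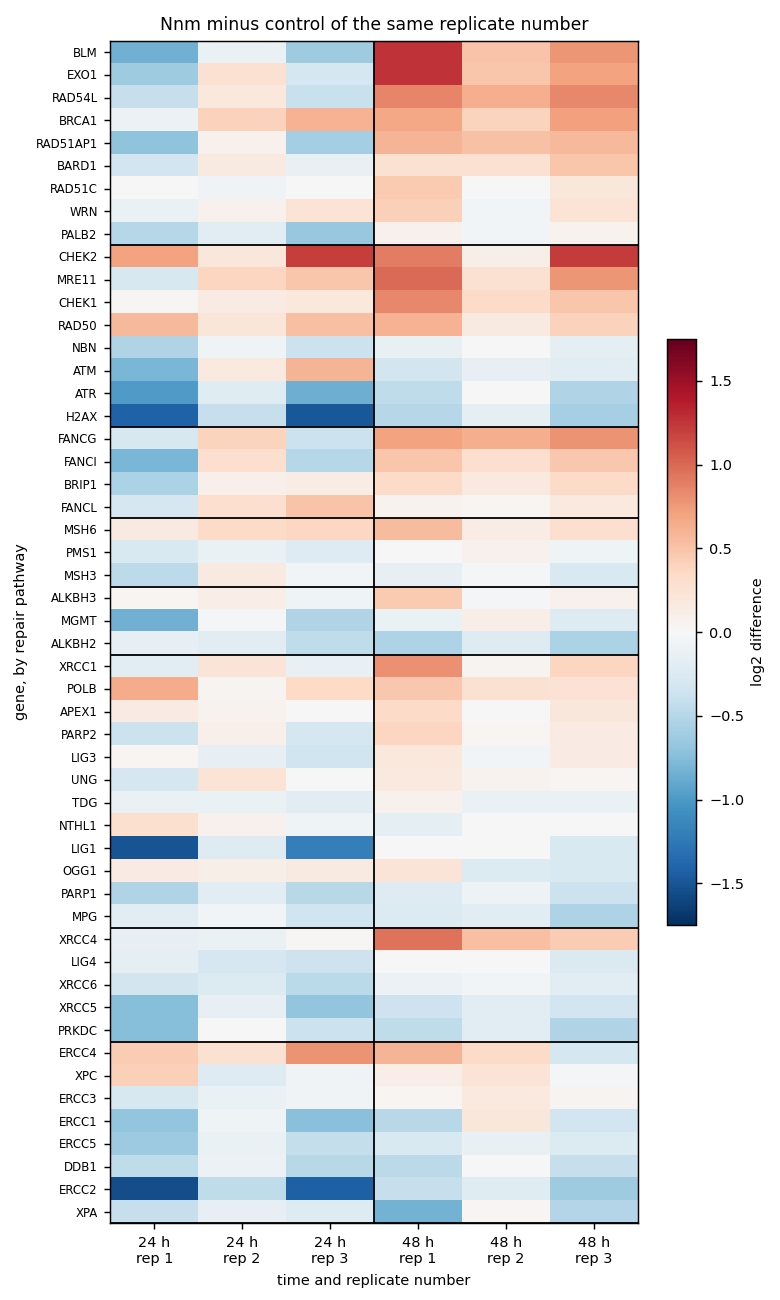
Log2 difference between the Nnm and control arrays of the same replicate number (colour, red higher and blue lower) for the 52 genes in rows, grouped by pathway, and the 3 replicate numbers at 24 h and 48 h in columns. Replicate 2 is paler than replicates 1 and 3 at both times, and the homologous recombination rows turn from mostly blue at 24 h to red at 48 h.

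Replicate 2 showed smaller changes than the other replicates. Over the 52 members the median size of the paired change at 24 h was 0.40, 0.15 and 0.37 for replicates 1, 2 and 3, and 0.41, 0.14 and 0.32 at 48 h. All tested genes gave 0.36, 0.19 and 0.37 at 24 h and 0.34, 0.18 and 0.31 at 48 h. In homologous recombination the median paired change at 24 h was -0.41, 0.08 and -0.31, and at 48 h it was 0.60, 0.39 and 0.57. Without both Nnm arrays numbered 2, 17 members passed at 24 h (1 higher, 16 lower; 34% of all genes) and 17 at 48 h (11 higher, 6 lower; 28.9%). BLM (-0.74) and RAD54L (-0.40) were then called lower at 24 h and higher at 48 h (1.02 and 0.93), and FANCI likewise (-0.62 and 0.47). The part of the ACTB difference and of these arrays in the results was not tested beyond leaving them out.

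The controls of the 2 times were also compared with each other. All 9 recombination genes had lower control means at 48 h than at 24 h, with a median of -0.51 where all genes had -0.02. BLM differed by -1.16, EXO1 by -1.04, RAD54L by -0.56, RAD51AP1 by -0.54 and RAD51C by -0.51, and outside recombination H2AX differed by -0.65, XRCC4 by -0.63 and ERCC2 by -0.60. None of the 52 members passed limma's test of control 48 h against 24 h, in which 14 genes, 0.128% of those tested, passed; at an unadjusted p under 0.05 there were 16 members, 15 of them lower, and 15.7% of all genes. With the replicate number as a block 6 members passed: RAD51C (adjusted p = 0.0207), BLM (0.0154), EXO1 (0.0242), LIG3 (0.0483) and XRCC4 (0.0147) lower and MPG (0.0404) higher; this was 8.47% of all genes.

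With Nnm the values of these genes at 48 h were mostly at or above those at 24 h. The Nnm mean at 48 h minus that at 24 h was 0.22 for BLM, 0.01 for EXO1, 0.42 for RAD54L, 0.43 for RAD51AP1, 0.41 for FANCG and 0.09 for XRCC4, while RAD51C was at -0.27. For BLM the Nnm mean at 48 h was 7.55 ± 0.30 (SD, n = 3), below the 7.86 ± 0.14 of the controls at 24 h, and its controls at 48 h were at 6.70 ± 0.30. XRCC4 with Nnm at 48 h, 7.70 ± 0.09, stood level with the 24 h controls at 7.69 ± 0.19, and its 48 h controls were at 7.06 ± 0.31. RAD54L and FANCG had Nnm means at 48 h of 8.27 ± 0.27 and 8.02 ± 0.13, above their 24 h controls at 8.06 ± 0.07 and 7.71 ± 0.15. The comparison of Nnm with control at 48 h and that of the controls over time share the control arrays of 48 h, so their values are not independent.

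**Figure D4:**
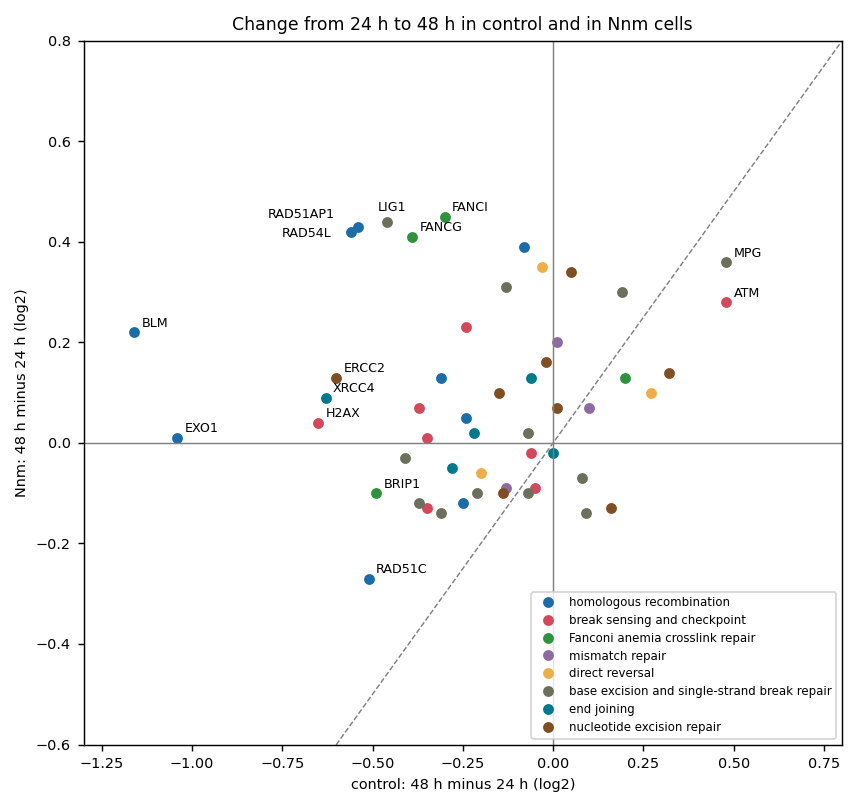
Log2 difference between 48 h and 24 h in control cells (horizontal axis) and in Nnm cells (vertical axis), one point for each of the 52 genes, coloured by pathway; the dashed line marks equal change, the scales of the axes differ, and genes with large changes are named. BLM and EXO1 lie farthest left, at -1.16 and -1.04 in controls and 0.22 and 0.01 with Nnm.

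The difference between the Nnm changes at 48 h and at 24 h did not pass for any gene in limma. At an unadjusted p under 0.05 there were 10 members (PALB2, RAD51AP1, RAD54L, BLM, EXO1, H2AX, FANCI, FANCG, LIG1 and XRCC4), all more positive at 48 h, and 698 of all genes (6.4%). BLM had the largest difference, 1.38 (adjusted p = 0.696), followed by EXO1 at 1.04, RAD54L at 0.98, RAD51AP1 at 0.97 and LIG1 at 0.90. Without Nnm replicate 2 of 24 h FANCI and LIG1 passed, and without both Nnm arrays numbered 2 RAD54L (1.33), BLM (1.76), FANCI (1.10), FANCG (1.03) and LIG1 (1.21) passed with adjusted p of 0.0278 to 0.0487. No member passed with the replicate number as a block in either form, and with array weights estimated by limma BLM, FANCG and RAD54L passed. A call at 1 time and none at the other does not show that the change differed between the times.

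Genes of S phase and proliferation, which include MCM helicases, replication factors and cyclins, were measured on the same arrays. Of 35 tested, 1 rose and 2 fell at 24 h, with a median of -0.28, and 3 rose at 48 h (CCNA2 by 0.91, TOP2A by 0.80 and RFC5 by 0.57), with a median of 0.24. The share called was 8.57% at each time, beside 19.4% of all genes at 24 h and 13.8% at 48 h. In the controls the median difference between 48 h and 24 h was -0.36, with 34 of 35 negative, beside 53% of all genes. The Nnm change was more positive at 48 h in 34 of 35, beside 51.9% of all genes. The replication licensing factor CDT1 differed by 1.13 at 24 h, where it passed, and by 0.97 at 48 h (adjusted p = 0.0734 by limma). The part of proliferation in the values of the repair genes was not tested.

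Targets of p53, the transcription factor that DNA damage activates, gave more decreases than increases among the calls of this list. Of 18 tested, 1 rose (PPM1D, a phosphatase that ends damage signalling, by 0.54) and 4 fell at 24 h, and at 48 h none rose and TIGAR (-0.81), GADD45A (-0.72) and ZMAT3 (-0.61) fell, beside 19.4% of all genes called at 24 h and 13.8% at 48 h. Over both times 2 rose and 9 fell, beside 20.4% and 16.9% of all genes, among them TIGAR (-0.76), the apoptosis effector BAX (-0.37) and the kinase PLK2 (-1.48). CDKN1A, the cell cycle inhibitor, differed by -0.22 and -0.58 and MDM2 by 0.01 and 0.02, and neither passed. DDB2, a p53 target held in the list of other repair genes, rose by 0.95 at 48 h (adjusted p = 0.0406 by limma) and by 0.76 over both times (0.0104).

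A further list of 102 repair genes outside the 57 had 91 tested. At 24 h 7 rose and 5 fell, at 48 h 11 rose and 2 fell, and over both times 23 rose and 8 fell. The shares called were 13.2%, 14.3% and 34.1%, beside 19.4%, 13.8% and 37.3% of all genes. Those that rose were 7.69%, 12.1% and 25.3%, beside 10.6%, 8.45% and 20.4% of all genes. The medians were 0.03, 0.13 and 0.06. In homologous recombination RMI2, which works with BLM in dissolving joined molecules, rose by 0.80 at 24 h (adjusted p = 0.00879 by limma) and 0.82 at 48 h (0.0106). SWI5 and SFR1, partners in one complex that acts in recombination, rose over both times by 0.72 and 0.38. RECQL4 fell at 24 h (-0.84) and over both times (-0.41), and MUS81 fell over both times (-0.36). Of the 20 recombination genes tested in this list, 4 rose and 2 fell over both times. In the crosslink pathway FANCB rose by 1.24 at 48 h and the nuclease DCLRE1A by 0.70 and 0.62, while FAAP100 of the core complex fell by 0.86 on the log2 scale at 24 h.

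Among the other damage signalling genes WEE1, the kinase that holds back mitosis, rose by 0.65 at 48 h and the ubiquitin ligase RNF8 by 0.53, and BABAM1, part of a BRCA1 complex, differed by -0.63 and -0.49 and fell at both times. In nucleotide excision repair CCNH fell at both times, by 1.43 and 1.00 on the log2 scale, whereas its partner in the TFIIH kinase, CDK7, rose by 0.79 at 24 h, and ERCC6, which acts at stalled RNA polymerase, rose over both times by 0.58. The base excision gene NEIL3 rose by 0.95 at 48 h, TDP2, which frees DNA ends from trapped topoisomerase, by 0.41, and the glycosylase MBD4 rose over both times by 0.30. Of 9 translesion polymerase genes POLK alone passed over both times, at 0.38; POLI (0.42) and MAD2L2 (0.38) did not. The end joining genes POLM (1.18), DCLRE1C (0.22) and POLL (0.21) had mean changes that did not pass, and neither did that of the mismatch repair gene MLH3 (0.21); of the direct reversal genes ASCC3 fell (-0.30) and ALKBH1 did not pass (-0.02).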

How the data were processed

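Expression was measured on 12 Affymetrix arrays, 1 for each biological replicate. The authors deposited normalized values for 54675 probe sets, made with GCRMA per the submitters' processing notes (version not given in the sources used here). Their range is that of log2 values, and the deposited log2 values were used without further scaling; GCRMA removes background and equalises the arrays, which can hide a change common to all genes, and arrays give no read depth, so the number of arrays limits the precision.

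Gene symbols came from the platform annotation, in which 41091 probe sets named 1 gene, 1801 several and 11721 none; 41037 of those naming 1 gene had a gene ID in the RefSeq table of GRCh38.p14, which changed 0 symbols. Probe sets above a log2 value of 4 on at least 3 arrays were kept (19832), and the one with the highest mean stood for its gene; 5320 of the 10907 genes had more than 1. limma 3.58.1 in R 4.3.3 was fitted to the 4 group means over all arrays without a block, and 5 contrasts were tested with Benjamini-Hochberg adjustment over all 10907 genes at 0.05. The code was tested on simulated data.

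Residuals of arrays sharing a replicate number and time correlated at 0.34 to 0.512, those sharing a number at 0.318 to 0.696 and those of different numbers at -0.587 to 0.119, so the numbers were taken to pair the arrays, from the data, and blocked values stand beside results whose call they change. The members, the lists and the motifs were chosen with earlier results of these data known. Members called in any contrast have all values printed, and of the other repair lists up to 3 genes with the smallest p for the mean change, beside others with calls at 1 time or over both times. Alternatives covered the filter, the probe set, the scaling, array weights, the prior, blocks, fewer groups and left-out arrays. Promoters came from RefSeq; no other sequence was used.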

Additional observations from a re-analysis of the deposited data

Results flagged for a closer look

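BLM had Nnm changes of opposite sign at the 2 times in every replicate pair. Its difference between times was 1.38, from -0.53 at 24 h to 0.85 at 48 h; the test of that difference had an unadjusted p of 0.00175 and an adjusted p of 0.696 in limma's fit over all genes, so it did not pass.

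ERCC3 showed the same pattern at a smaller size, with a difference between times of 0.24, from -0.16 at 24 h to 0.09 at 48 h (unadjusted p = 0.124 and adjusted p = 0.821 by limma).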

How the results depend on the processing

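No alternative reversed the direction of a called change. Out of 52 members, the calls at 24 h numbered 5 in the fit as reported, 3 without the filter, 25 with array weights, 8 with a trended robust prior, 17 with the replicate block over all arrays, 10 with the replicate block within each time, 1 with only the groups compared, 17 without both Nnm arrays numbered 2, and 17 by lack of overlap. At 48 h the 4 calls became 2 without the filter, 7 when each gene's probe sets were averaged, 18 with array weights, 12 and 10 with the replicate block in its 2 forms, 1 with only the groups compared, 17 without both Nnm arrays numbered 2 and 21 by lack of overlap. The 17 calls over both times became 10 without the filter, 27 with array weights, and 27 with the replicate block over all arrays; the replicate block within each time gave 22. The difference between times had 0 calls, 3 with array weights and 5 without both Nnm arrays numbered 2. The controls over time had 0 calls, 1 with array weights, 6 with the replicate block over all arrays and 1 without both Nnm arrays numbered 2; the block within each time could not give that contrast. Leaving out 1 array in turn gave 0 to 17 calls at 24 h, 0 to 10 at 48 h, 9 to 22 over both times, 0 to 2 for the difference between times and 0 for the controls. In the fit as reported 19.4% of all genes were called at 24 h, 13.8% at 48 h and 37.3% over both times. Groups did not overlap for 39.8% of all genes at 24 h and 36.1% at 48 h. The share of all genes called also moved with the setting, so the counts of members alone do not set repair genes apart. The cause of these differences was not tested. Quantile normalisation and median centring moved the median of all genes to between -0.001 and 0.035, and after either RAD50 did not pass at 24 h (adjusted p = 0.0525 and 0.06 by limma).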
